A study of Mus musculus with 141 samples.

Results

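Pulmonary surfactant is the film of phospholipid and protein that keeps alveoli open, and it is made by alveolar type 2 cells. The lipid is built by acyltransferases, loaded into lysosome-related organelles called lamellar bodies by a lipid transporter, and released with the small hydrophobic surfactant proteins, while the larger surfactant proteins are collectins that bind microbes and lipid in the airspace. The 8 genes described here were chosen by symbol, for their known part in surfactant, from the 24423 genes that each file lists. They are the surfactant proteins Sftpa1, Sftpb, Sftpc and Sftpd, and the lamellar body and lipid genes Abca3, Lamp3, Napsa and Lpcat1. All 8 passed the filter on low counts that left 12127 genes for the tissue comparison.

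RNA-seq of whole lung, liver and kidney came from 47 strains of the Collaborative Cross (CC), recombinant inbred mice whose genomes are mosaics of a common set of founders. For each strain 1 male mouse of 8 to 12 weeks was used, so the 3 groups are 47 lungs, 47 livers and 47 kidneys without treatment, and strain and individual mouse cannot be told apart. All of these animals had spent 2 weeks in exposure chambers that supplied clean air for 6 hours on working days, so every group shares that handling and the NTP 2000 diet. The values are expected counts and TPM (a level per length of transcript, scaled to the library) from RSEM, and only reads with a unique alignment to the genome of their own strain were used.

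Total counts ranged from 2829104 to 17585682 in lung, from 1738046 to 42158454 in liver and from 3046695 to 15028553 in kidney. The ribosomal precursor Rn45s took between 0.695% and 71.7% of the counts of a lung library, with a median of 18.0%, and up to 69.0% in liver and 63.1% in kidney. Counts were therefore put on a common scale with TMM (trimmed mean of M-values) and are given as CPM, counts relative to the scaled size of the library. Because whole organs were used, fewer cells of a type and less RNA per cell cannot be told apart. Other lung cells were present beside type 2 cells, since all 6 listed club cell genes and all 6 listed alveolar type 1 genes had a median above 3 counts in lung, with summed levels of 4714 to 14470 CPM and 907 to 1548 CPM. Of the type 2 markers outside the 8 genes, the phosphate transporter Slc34a2 and the transcription factor Etv5 were higher in lung than in liver, whereas the protease Ctsh was lower on the TMM scale but not by TPM, with the values given below.

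The sequences just before the start of transcription are shown for the 3 genes whose windows held a motif of NKX2-1 or FOXA factors, textbook regulators of type 2 cell genes. RefSeq promoter windows (build GRCm38.p6) were found for 5 of the 8 genes, Sftpa1, Sftpb, Abca3, Lamp3 and Lpcat1, and the 250 bases before the start were searched on both strands for CTCAAG, a core recognised by NKX2-1, and for TGTTTNC, a forkhead motif bound by FOXA factors. The search found no overlapping matches, and capitals mark them in the sequences, which run 5′ to 3′ on the strand of the gene and end at the base before the start.
Sftpb, chr6:72304360-72304609, plus strand: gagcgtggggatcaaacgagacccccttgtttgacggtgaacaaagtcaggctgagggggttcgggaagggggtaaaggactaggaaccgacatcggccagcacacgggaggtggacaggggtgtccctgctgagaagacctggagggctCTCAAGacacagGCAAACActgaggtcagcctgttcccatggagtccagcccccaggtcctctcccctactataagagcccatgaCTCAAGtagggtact
Sftpa1, chr14:41131538-41131787, plus strand: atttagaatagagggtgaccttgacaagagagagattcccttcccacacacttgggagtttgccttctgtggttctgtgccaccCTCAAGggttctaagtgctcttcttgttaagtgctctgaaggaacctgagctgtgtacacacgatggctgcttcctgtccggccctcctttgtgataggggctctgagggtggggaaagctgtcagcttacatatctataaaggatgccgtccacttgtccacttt
Lamp3, chr16:19706366-19706615, minus strand: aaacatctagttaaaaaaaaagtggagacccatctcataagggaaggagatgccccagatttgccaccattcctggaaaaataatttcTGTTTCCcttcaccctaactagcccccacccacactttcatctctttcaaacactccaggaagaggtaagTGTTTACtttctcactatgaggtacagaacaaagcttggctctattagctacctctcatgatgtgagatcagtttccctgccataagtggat
The Sftpb window held 2 matches of the NKX2-1 core, which began 100 and 15 bases before the start, and 1 forkhead match on the opposite strand between them. Sftpa1 had 1 NKX2-1 match, beginning 166 bases before the start. Lamp3 had 2 forkhead matches, beginning 162 and 92 bases before the start. Neither motif occurred in the windows of Abca3 and Lpcat1. Among 27025 promoter windows of the same length, 13.6% held the NKX2-1 core and 17.9% held the forkhead motif, so a match is a description of these letters and not of binding.

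The level of each gene was compared among tissues of the same mouse with limma-voom over all 12127 genes, with strain as a block. A gene was called where q, the Benjamini-Hochberg adjusted p, was at most 0.1 and the log2 fold change was 1 or more in size. Of the 8 genes, 7 were called higher in lung than in liver, against 31.0% of all tested genes, and 0 were called lower, against 23.9%, since all 8 had a positive log2 fold change. In lung against kidney, 6 were called higher and 1 lower, against 25.5% and 20.6% of all genes. The median log2 fold change of the 8 genes was 7.55 against liver and 9.33 against kidney, and that of all tested genes was 0.055 and 0.039. The exceptions were Abca3, which was called in neither comparison, and Napsa, which was far higher in kidney than in lung. The ranges below describe single genes, and the share of all tested genes without overlap between tissues was not counted.

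Sftpc encodes the hydrophobic surfactant protein C, a membrane-spread peptide made almost only in type 2 cells. In lung it ranged from 2312 CPM (strain CC002) to 5464 CPM (CC039) with a median of 3128. In liver it ranged from 0.359 to 69.7 CPM with a median of 8.19, and in kidney from 0.158 to 41.0 CPM with a median of 3.56. No liver or kidney library reached the lowest lung. The log2 fold change was 8.90 ± 0.149 (SE, n = 47) against liver and 9.89 ± 0.155 against kidney, with lung higher in 47 of 47 strains both times (limma-voom, q = 4.11e-77 and 1.82e-79).

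Sftpa1, which encodes the collectin surfactant protein A, lies at chr14:41945071-41949741 on the plus strand (NCBIM37), and Sftpd, the gene of the collectin surfactant protein D, lies close by at chr14:41985501-41998487 on the minus strand. Lung levels of Sftpa1 ran from 804 CPM (CC017) over a median of 1521 to 3015 CPM (CC068). Its levels were 1.85 to 37.4 CPM in liver (median 6.83) and 0.0789 to 24.1 CPM in kidney (median 1.46). Sftpd ranged from 119.7 CPM (again in CC017) to 510.5 CPM (CC040) in lung, with a median of 283. In liver it ran from 0.279 to 15.3 CPM with a median of 1.51, and in kidney 23 of 47 libraries had at most 3 counts of it. The lung values of both genes lay wholly above those of the other tissues, with log2 fold changes of 7.71 ± 0.119 (SE) against liver and 9.98 ± 0.138 against kidney for Sftpa1, and of 7.39 ± 0.103 and 9.44 ± 0.124 for Sftpd.

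Sftpb encodes surfactant protein B, a saposin-like protein without which lamellar bodies do not form. In lung it ranged from 18.5 CPM (CC033) to 169.9 CPM (CC037) with a median of 57.7, a 9.18-fold range that was the widest among the 8 genes in lung. Outside lung it was close to absent, since 45 of 47 livers and 44 of 47 kidneys had at most 3 counts, and 23 livers and 28 kidneys had 0. The fitted log2 fold changes of 8.37 ± 0.127 (SE) and 9.22 ± 0.128 thus depend on how zeros are treated. Against a level of 3 counts per library the median lung was at least 103-fold higher than liver and at least 171-fold higher than kidney.

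Lamp3 encodes DC-LAMP, a lysosomal membrane protein found in lamellar bodies and in mature dendritic cells. Its lung levels were among the most even, from 160.3 CPM (CC030) over a median of 285 to 412 CPM (CC055). In liver 30 of 47 libraries and in kidney 31 of 47 had at most 3 counts, and the highest values were 4.06 and 3.39 CPM. The median lung was at least 508-fold above a level of 3 counts per library in liver and at least 847-fold above it in kidney.

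Lpcat1 encodes the acyltransferase that remodels phosphatidylcholine into the dipalmitoyl form of surfactant. It ranged from 68.7 to 171.3 CPM in lung with a median of 118.5. Liver libraries held 0.872 to 10.2 CPM with a median of 2.56, and kidney libraries 2.18 to 6.40 CPM with a median of 4.50. The groups did not overlap between lung and the other tissues, with log2 fold changes of 5.44 ± 0.0610 (SE) against liver and 4.66 ± 0.0577 against kidney (limma-voom, q = 6.52e-93 and 1.04e-88).

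**Figure D1:**
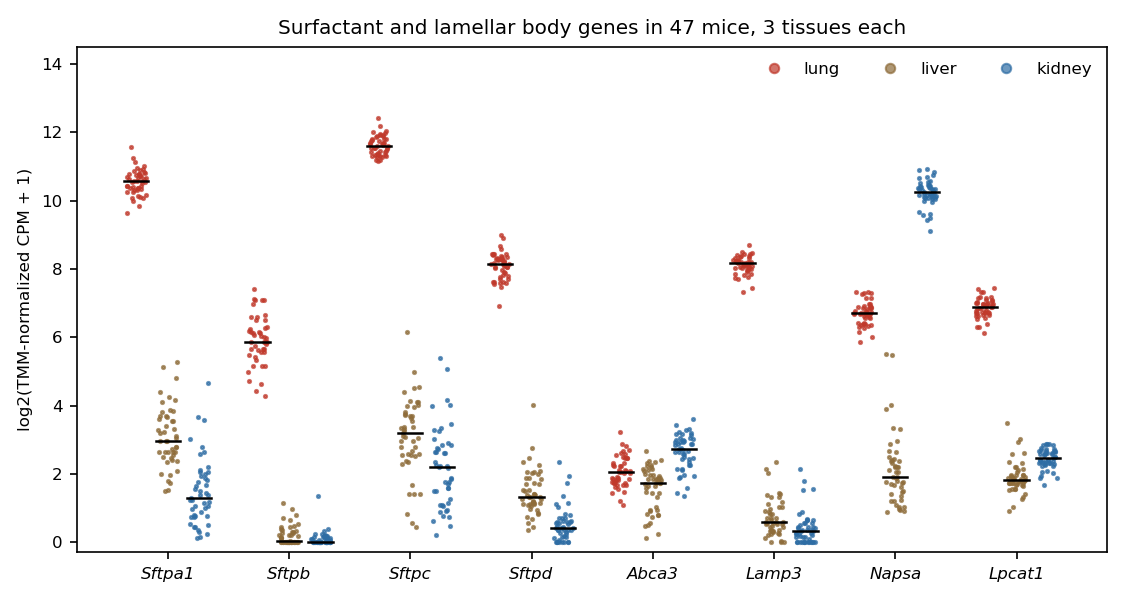
Level of each of the 8 genes in every library, as log2(TMM-normalized CPM + 1). Points are the 47 libraries of lung (red), liver (brown) and kidney (blue), and black bars are medians. Lung lies above liver and kidney without overlap for Sftpa1, Sftpb, Sftpc, Sftpd, Lamp3 and Lpcat1, whereas kidney is highest for Napsa and the 3 tissues of Abca3 overlap. The share of all tested genes that separate in this way was not counted.

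Napsa encodes napsin A, an aspartic protease that processes the precursors of surfactant proteins B and C and is also made in the kidney. In kidney it ranged from 548 to 1944 CPM with a median of 1210, in lung from 56.6 to 159.5 CPM with a median of 103.7, and in liver from 0.852 to 44.2 CPM with a median of 2.78. By CPM every kidney exceeded every lung and every lung exceeded every liver. On the TPM scale the highest liver, at 44.99, was just above the lowest lung, at 44.91. The log2 fold change of lung against kidney was -3.53 ± 0.0948 (SE, limma-voom, q = 2.18e-58), with kidney higher in 47 of 47 strains, and that of lung against liver was 5.09 ± 0.114 (q = 1.2e-65). By TPM, Napsa had a median rank of 22 among all genes in kidney and 254 in lung.

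Abca3 encodes the ATP-binding cassette transporter that moves phospholipid into lamellar bodies. Its levels overlapped widely among tissues, from 1.12 to 8.43 CPM in lung (median 3.12), from 0.0829 to 5.31 CPM in liver (median 2.34) and from 1.57 to 11.1 CPM in kidney (median 5.63). Lung was higher than liver in 36 of 47 strains and higher than kidney in 9 of 47. The log2 fold changes of 0.66 ± 0.169 (SE) against liver and -0.75 ± 0.167 against kidney passed q (0.000201 and 2.32e-05, limma-voom) but not the threshold of size. Against liver the gene was called without the replicate block, at a log2 fold change of 1.02, on log2(TPM + 1), at 1.08, and on log2(TPM + 0.1), at 1.99, where the medians of all tested genes on these 2 TPM scales were 1.21 and 1.52. Against kidney the difference did not pass q on either TPM scale (-0.12 with q = 0.166 and -0.19 with q = 0.211, limma).

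The files name 2 transcripts each for Abca3 and Sftpb and 1 for each of the other 6 genes. Over all genes, the median of the mean lung level was 0.238 CPM for the 6112 genes with more than 1 transcript and 1.62 CPM for the 18311 genes with 1, and 32.2% and 55.5% of them passed the low-count filter. Whether reads shared by both transcripts are missing from the Abca3 and Sftpb counts was not tested, nor whether any such loss differs between tissues. Their levels are therefore not set against those of the other 6 genes. The differences of Abca3 and Sftpb between tissues carry the same limit.

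**Figure D2:**
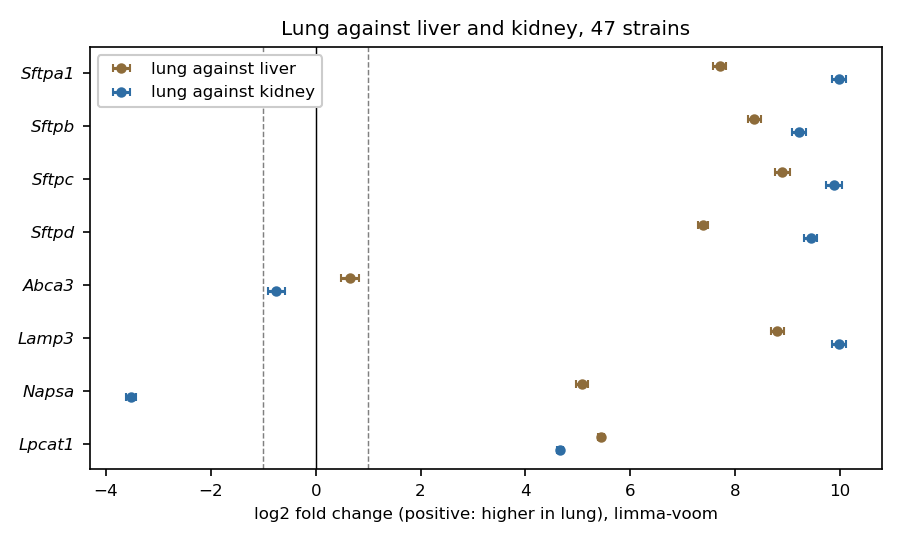
Log2 fold changes of the 8 genes between lung and liver (brown) and between lung and kidney (blue) from the limma-voom fit over 47 strains. Bars are standard errors and dashed lines mark a log2 fold change of 1 in either direction. The values for Sftpa1, Sftpb, Sftpc, Sftpd, Lamp3 and Lpcat1 lie at 4.66 or more in both comparisons, Napsa is at 5.09 and -3.53, and Abca3 lies inside the dashed lines.

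Per length of transcript, the 6 genes with 1 transcript fell into a clear order in lung only at the top. Sftpc was highest, with a median of 18570 TPM and a median rank of 5 among all genes, and it exceeded Sftpa1 (median 2596 TPM) in 47 of 47 lungs. Sftpa1 in turn exceeded Sftpd (1089 TPM) in 47 of 47, and Sftpd exceeded Lamp3 (385 TPM) in 47 of 47. Lamp3 was above Napsa (356 TPM) in 30 of 47 lungs and Napsa above Lpcat1 (339 TPM) in 20 of 47, so these 3 neighbours did not differ beyond the spread between lungs. The 8 genes together held a median of 2.498% of the TPM of a lung, with a range of 0.490% to 4.60%, against 0.00323% in liver and 0.277% in kidney. Napsa led the 8 genes in kidney with a median of 2749 TPM.

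The other genes of the pathway were taken from lists set by function. Of 59 listed genes 41 were tested, and 16 of the 18 that did not pass the low-count filter have more than 1 transcript in the files. The same holds for 17 of the 41 tested genes. In lung against liver 19 of the 41 were called higher and 9 lower, with a median log2 fold change of 0.61, against 31.0% and 23.9% of all tested genes. In lung against kidney 20 were higher and 6 lower, with a median of 0.90, against 25.5% and 20.6% of all genes. On log2(TPM + 1), where 57.5% of all tested genes were called higher in lung than in liver and 8.28% lower, 26 of the 41 were higher and 0 lower against liver, and 21 higher and 1 lower against kidney, where 30.7% and 12.8% of all genes were called, so the balance of these calls depended on the scale.

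Among transcription factors of type 2 cells, 3 of 5 tested were called higher in lung than in liver and 5 of 5 higher than in kidney, against 31.0% and 25.5% of all tested genes, and the groups that follow are to be read against the same shares. The homeobox factor Nkx2-1 had a median of 2.02 CPM in lung and 0 counts in 46 of 47 livers, and lung was at least 3.6-fold above a level of 3 counts per library in liver. Its fitted log2 fold change ran from 2.08 to 7.21 under the alternatives. The ETS factor Etv5 averaged 109.8 CPM against 6.26 CPM in liver (log2 fold change 4.12 ± 0.067, SE) and Gata6 22.9 CPM against 5.35 CPM (2.13 ± 0.068).

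Among genes that process or sort the precursors, 1 of 5 was called higher in lung than in liver and 1 lower. The palmitoyltransferase Zdhhc2, which acts on the Sftpc precursor, was higher (1.76 ± 0.104), and the cathepsin Ctsh, which trims the precursors of surfactant proteins B and C, was lower (-1.09 ± 0.069), at a mean of 14.0 CPM against 28.8 CPM, though its fold change was positive on both TPM scales (up to 0.40).

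Of 11 tested genes of phospholipid and fatty acid synthesis, 2 were called higher and 5 lower in lung than in liver. The desaturase Scd2 averaged 438 CPM in lung and 15.5 CPM in liver (5.14 ± 0.099), and the elongase Elovl1, with at most 3 counts in 36 of 47 livers, was at least 5.02-fold above that level. Lpin1, a phosphatidate phosphatase, was lower (-3.16 ± 0.159), with -0.99 as its smallest difference among the alternatives.

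In the group of lamellar body transport and organelle biogenesis, 6 of 11 were called higher in lung than in liver and 3 lower, but against kidney 3 were higher and 4 lower. Slc34a2, the phosphate transporter, averaged 1360 CPM in lung against 11.8 CPM in liver and 10.9 CPM in kidney (7.43 ± 0.134 and 7.11 ± 0.128). The flippase Atp8a1 had at most 3 counts in 44 of 47 livers and 35 of 47 kidneys, and lung was at least 6.19-fold and 10.3-fold above that level. Lrrk2, a kinase of lysosome-related organelles, was 4.10 ± 0.055 above liver but lower than in kidney (-1.01 ± 0.053), a call at the threshold that was lost where the difference fell to -0.49 among the alternatives.

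Both tested genes of secretion were called higher in lung than in liver, the receptor Adgrf5, which restrains surfactant pools, at 3.85 ± 0.043 and the vesicle protein Vamp2 at 1.55 ± 0.092. Of 7 tested genes of uptake and clearance, 5 were called higher than in liver and 7 higher than in kidney, among them the sterol transporter Abcg1 (2.66 ± 0.064 against liver), the GM-CSF receptor chain Csf2ra (2.39 ± 0.092) and the macrophage factor Spi1 (1.82 ± 0.106).

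Relatives of the 8 genes by sequence family were called in both directions, and 5 of the 27 tested have more than 1 transcript. Of 27 tested paralogs, 9 were called higher and 9 lower in lung than in liver (33.3% each, against 31.0% and 23.9% of all tested genes), with a median log2 fold change of -0.28. On log2(TPM + 1) 14 were higher and 4 lower, with a median of 1.09. The paralogs named below kept their sign under each scaling tried. The collectins of the liver, which bind microbial sugars in blood, ran opposite to Sftpa1 and Sftpd. Mbl2 averaged 436.6 CPM in liver and had at most 3 counts in 31 of 47 lungs, so that liver was at least 1960-fold above that level. Colec10 averaged 85.7 and 0.479 CPM (-7.88) and Mbl1 184.6 and 1.46 CPM (-7.08). Among acyltransferases Lpcat2 (1.52) and Lpcat4 were called higher in lung than in liver, and Lpcat3 (-2.28), the enzyme that makes polyunsaturated phosphatidylcholine, lower. For Lpcat4 30 of 47 livers had at most 3 counts, and lung was at least 8.62-fold above that level. Of 10 ABCA transporters tested, 5 were higher and 4 lower, led by Abca6 (-5.78), Abca4 (at least 7.09-fold higher than 3 counts per library, which 32 of 47 livers did not exceed) and Abca7 (2.26). Lamp2 was lower (-1.74) and Cd68, a macrophage member of the LAMP family, higher (1.33). The BRICHOS protein Itm2a was higher (3.65), and 0 of the 4 aspartic proteases tested passed the threshold against liver. Among the alternatives the smallest differences were -0.80 for Lpcat3 and -0.45 for Lamp2, under the threshold.

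In liver and kidney, where alveolar cells are absent, several of the 8 genes nevertheless had counts. Between these tissues 3 of the 8, Sftpa1, Sftpd and Lamp3, were called higher in liver, against 15.6% of all tested genes, and Abca3 and Napsa were called higher in kidney, against 20.8%. The log2 fold changes of liver against kidney were 2.27 ± 0.134 (SE) for Sftpa1, with liver higher in 43 of 47 strains, and 2.06 ± 0.113 for Sftpd, in 43 of 47, and both calls were lost on log2(TPM + 1), at 0.89 and 0.69. Sftpc stood at 0.99 ± 0.154, just under the threshold, and was called with edgeR at 1.08, with DESeq2 at 1.05 and without the replicate block at 1.01, whereas it was 0.19 (q = 0.425) on log2(TPM + 1) and 0.21 (q = 0.432) on log2(TPM + 0.1) with limma. For Lamp3 both tissues were near 3 counts, and its call was lost with edgeR (0.99) and DESeq2 (0.98). It was also lost on log2(TPM + 1), at 0.03, and on log2(TPM + 0.1), at 0.24. Lpcat1 was not called at -0.78, but was called higher in kidney on these TPM scales, at -1.38 and -1.65. The medians of all tested genes there were -0.718 and -0.939. Napsa was at -8.62 ± 0.115 and Abca3 at -1.41 ± 0.168, with kidney higher in 47 and 44 of 47 strains.

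Relative to the lung of the same mouse, liver held a median of 0.251% of the level of Sftpc, 0.481% of Sftpa1 and 0.589% of Sftpd. Kidney held 0.109% of Sftpc, 0.0934% of Sftpa1 and 0.115% of Sftpd. The club cell secretoglobin Scgb1a1, an airway gene, stood at 0.201% in liver and 0.0816% in kidney, in the same range. Lpcat1 was at 2.18% in liver and 3.86% in kidney and Abca3 at 65.2% and 163%, well above it. The liver of CC033, whose TMM factor of 0.116 was the lowest of its tissue, had 69.7 CPM of Sftpc and 86.7 CPM of Scgb1a1. Its Sftpc was the highest liver value by CPM and by TPM (47.0), while it led Sftpa1, Sftpd, Napsa and Lpcat1 by CPM and not by TPM. The kidney of CC004 was highest for Sftpa1, Sftpc, Sftpd and Lamp3 by both measures, and for Lpcat1 by CPM alone.

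Levels of the 8 genes outside lung were then set beside airway genes of the same library. On the summed list of 6 club cell genes, 3 of 12 relations passed q ≤ 0.1 by Pearson's r, all negative and in liver (Napsa, Lpcat1 and Sftpd, r of -0.376 to -0.385), and 0 passed by Spearman's rho. That list is not lung-specific in liver, where Cyp2f2 stood at a median of 154% of its lung level. The list was led by Scgb1a1 in lung but by Aldh1a1 in liver and in kidney. Its sum in kidney ran from 10.7 to 819 CPM. Scgb1a1 alone, chosen after seeing the data, gave a different picture. Sftpc followed it across 47 livers with r = 0.914 and rho = 0.883 and across 47 kidneys with r = 0.931 and rho = 0.905 (permutation p = 1e-05 for each, the smallest that 100000 permutations can give, q = 2.4e-05 over 12 relations). For Sftpa1 r was 0.913 in kidney and 0.561 in liver, and for Sftpd 0.713 and 0.651. When the 2 strains most distant from the median of Scgb1a1 were left out, r lay between 0.491 and 0.916 for these 3 genes, and within the deeper and shallower libraries it lay between 0.514 and 0.940. Napsa did not pass in liver (r = 0.115, q = 0.482) or kidney (r = 0.0465, q = 0.757). Lpcat1 passed weakly in liver by r (0.322, q = 0.0489) but not by rho (0.184, q = 0.286), and not in kidney. Abca3 passed in kidney by r (0.290, q = 0.0719) and not by rho (0.268, q = 0.117), and not in liver. Sftpa1, Sftpc, Sftpd, Napsa and Lpcat1 in liver thus changed sign between the list and Scgb1a1. On the list r in liver was -0.249 for Sftpa1 and -0.267 for Sftpc, and neither passed. Whether lung RNA or reads of other libraries contributed was not tested.

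**Figure D3:**
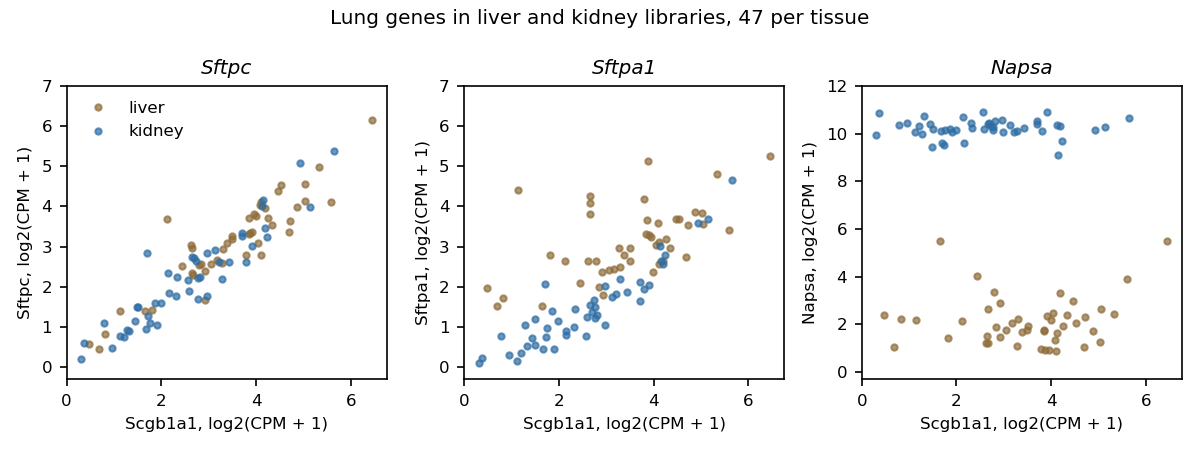
Levels of Sftpc, Sftpa1 and Napsa against the airway gene Scgb1a1 in the 47 liver (brown) and 47 kidney (blue) libraries, each axis as log2(CPM + 1). Scgb1a1 was chosen after seeing the data. Sftpc rises with it in both tissues (r = 0.914 and 0.931), and Sftpa1 does so with r = 0.913 in kidney and r = 0.561 in liver. The r of Napsa is close to 0 (r = 0.115 and 0.0465). Beside the summed list of club cell genes, which is not shown, r of Sftpc was -0.267 in liver and 0.153 in kidney. For Sftpa1 it was -0.249 and 0.177, and for Napsa -0.385 and 0.016. Of these list values only that of Napsa in liver passed q ≤ 0.1.

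Napsa, Abca3 and Lpcat1 in kidney were also set beside 6 proximal tubule genes, a comparison added after seeing the data. Their r was 0.219, 0.114 and -0.195, and 0 of 3 passed (permutation test, q of 0.282 to 0.448, with 0 at an unadjusted p under 0.05). The summed level of those genes ranged from 12110 to 38710 CPM in kidney.

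Among lungs, the spread between strains differed by gene. The SD of log2(CPM + 1) over the 47 lungs was 0.719 for Sftpb, 0.449 for Abca3, 0.392 for Sftpd, 0.364 for Sftpa1, 0.337 for Napsa, 0.284 for Sftpc, 0.283 for Lpcat1 and 0.261 for Lamp3. The median over the 7768 tested genes that averaged 5 CPM or more in lung was 0.265. Sftpb was thus more variable than 95.9% of these genes, while Lamp3 was more variable than 48.5%. With 1 mouse per strain, this spread holds differences between strains, between mice and between libraries together. Abca3 averaged 3.41 CPM in lung, under the limit of 5 CPM, with 7 to 178 counts per library. Its SD is therefore not set against those genes.

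Pairs of the 8 genes were compared across the 47 lungs by Pearson's r on log2(CPM + 1), with 100000 two-sided permutations and adjustment over the 28 pairs. Of these, 25 had a positive r, and 16 passed q ≤ 0.1, each of them positive. By Spearman's rho 11 passed. The share of other gene pairs that pass in these lungs was not tested, so these counts describe the 8 genes only. The highest r was that of Sftpb and Abca3, 0.619 (rho = 0.627, permutation p = 2e-05, q = 0.00056), and both genes are those with 2 transcripts. Next came the collectin genes Sftpa1 and Sftpd at 0.545 (rho = 0.498, permutation p = 4e-05, q = 0.00056), with r = 0.447 without CC017 and CC068. Napsa and Lpcat1 followed at 0.486 (rho = 0.499, q = 0.00532), Sftpc and Lpcat1 at 0.470 (rho = 0.427, q = 0.00567) and Sftpa1 and Lamp3 at 0.446 (rho = 0.432, q = 0.00969).

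Lamp3 passed only with Sftpa1 among its 7 pairs, and its r with Abca3, Napsa and Sftpb was -0.230, -0.193 and -0.118. The difference between these pairs and the others was not tested.

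Every pair that passed kept a positive r in the deeper and the shallower libraries and when the 2 strains most distant from the median of its first gene were left out. These are the lungs in which the pairs were chosen, so the signs are a description and no separate support. In the 23 lungs with more Rn45s 15 of the 16 were positive, the lowest at -0.0447, and in the 24 with less 16 were, the lowest at 0.145. Between these groups r was 0.148 and 0.559 for Sftpc and Lpcat1 and 0.0592 and 0.565 for Sftpb and Napsa. For Sftpa1 and Sftpd it was 0.552 and 0.513, and such differences were not tested. The 8 genes themselves had an r of -0.277 to 0.139 with the Rn45s share, and 0 of 8 passed (permutation test, lowest q = 0.185, with 0 of 8 at an unadjusted p under 0.05). With total depth, 0 of 8 passed, and 0 had an unadjusted permutation p under 0.05, with r from -0.266 to 0.107. These relations depended on TMM. On CPM without it all 28 pairs passed, and so did all 64 relations with the lung marker lists described next.

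**Figure D4:**
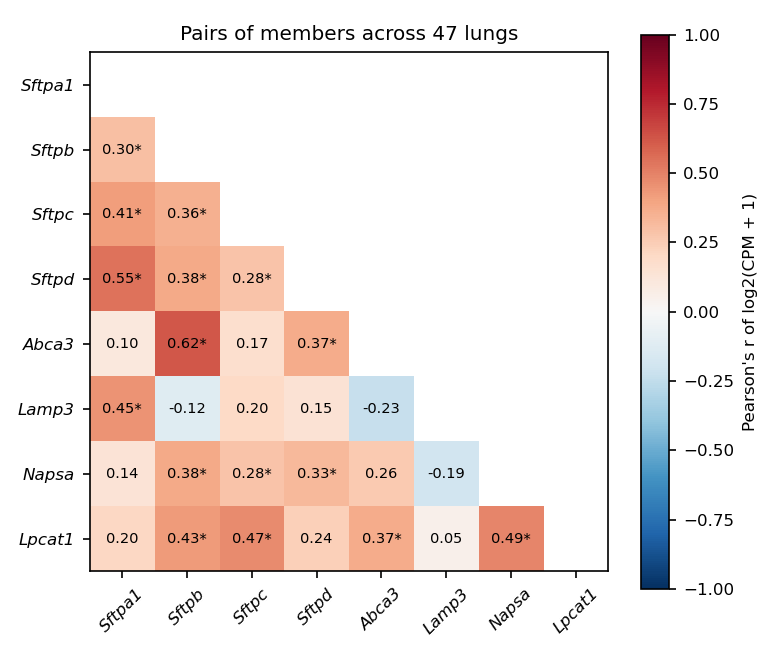
Pearson's r between each pair of the 8 genes across 47 lungs, on log2(CPM + 1), with asterisks for q ≤ 0.1 over the 28 pairs. The highest r is that of Sftpb and Abca3, and the negative values are those of Lamp3 with Abca3, Napsa and Sftpb.

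Each gene was also compared across lungs with the summed level of marker genes of 8 other cell types. At q ≤ 0.1, 0 of 64 relations passed by r or by rho, with 7 at an unadjusted permutation p under 0.05. The relation with the lowest p was that of Napsa with lung endothelium (r = -0.444, rho = -0.361, permutation p = 0.00182, q = 0.116), which was called with DESeq2 size factors (r = -0.456, q = 0.0794). Some of these lists varied widely among lungs. Alveolar macrophage genes ranged from 73.0 to 1666 CPM, B cell genes from 3.59 to 144 CPM and cardiac muscle genes from 54.1 to 497 CPM, whereas alveolar type 1 genes stayed between 907 and 1548 CPM.

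Strains were ranked for each gene. By the mean rank over the 8 genes, where 47 is the highest lung, CC039 was first at 41.5, with rank 47 for Sftpc and Lpcat1 and at least 31 for the others. CC025 followed at 40.2 and CC037 at 38.4. CC037 had the highest Sftpb and Abca3 but the second lowest Lamp3 (rank 2). CC017 was last at 4.75, with the lowest Sftpa1 and Sftpd, and CC030 stood at 8.88, with the lowest Lamp3. These ranks describe 1 mouse each.

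**Figure D5:**
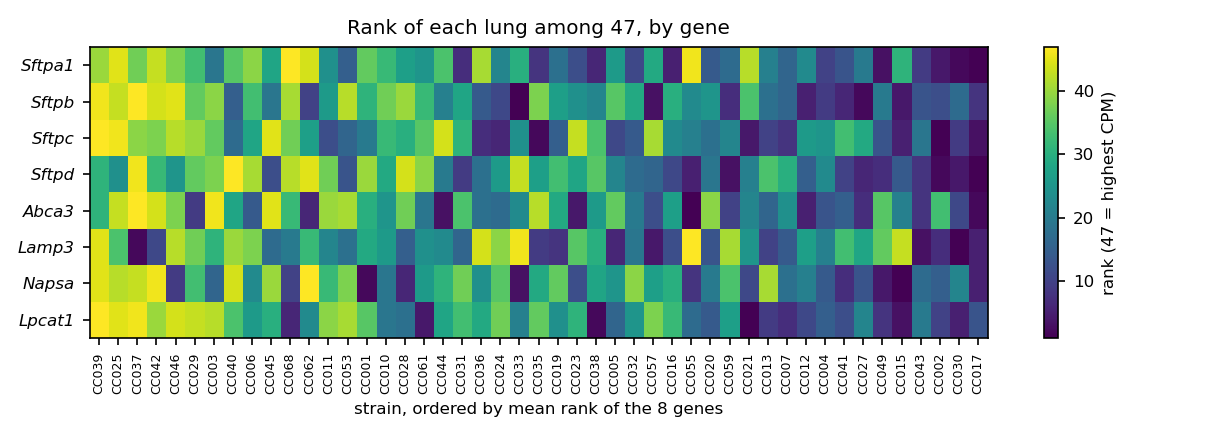
Rank of each of the 47 lungs for each of the 8 genes, from 1 (dark, lowest CPM) to 47 (yellow, highest), with strains ordered by their mean rank. CC039, CC025 and CC037 are at the high end and CC017, CC030 and CC002 at the low end, and the Lamp3 row departs from the order at CC037 (rank 2) and CC042 (rank 11).

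Among 7783 genes with at least 5 CPM in lung, the one most like the mean rank of the 8 genes over 47 lungs was Etv5, with a Spearman rho of 0.667. It was followed by Timm13 (0.661), Ppp1r16a (0.646), Gnptg (0.632), Bspry (0.629), Tspo (0.621), Pgs1 (0.612), Mroh1 (0.610), Oplah (0.595) and Ptprf (0.593). Of the further type 2 cell markers, Slc34a2 had rho = 0.577 (rank 15) and Ctsh only 0.26 (rank 1199). The listed type 2 cell factors Gata6 and Foxa1 had 0.109 (rank 2724) and -0.134 (rank 5623). For single genes the closest were Lgi3 for Sftpc (0.618), Cdc42ep3 for Sftpa1 (0.631), Sft2d1 for Sftpd (0.566), Nucb2 for Lamp3 (0.548), Pold1 for Napsa (0.646) and Cdk4 for Lpcat1 (0.600). The value for Ppp1r16a with Sftpb, 0.858, was the highest of all. These are the top values among many genes and carry no test.

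Levels of a gene in 1 tissue were compared with those in another tissue of the same mouse wherever both medians were above 3 counts. Of 18 such relations, 1 passed q ≤ 0.1, that of Abca3 between liver and kidney (r = 0.434, rho = 0.468, permutation p = 0.00225, q = 0.0405), with r of 0.163 in the deeper and 0.600 in the shallower libraries. Without the 4 strains that have a library under 3000000 counts it was 0.401 with q = 0.136. Between lung and another tissue 0 of 12 passed, and 0 had an unadjusted permutation p under 0.05. For Sftpc r was 0.0609 between lung and liver and -0.0112 between lung and kidney, and for Sftpa1 it was 0.177 and -0.230, so a higher lung level in a mouse did not go with a detectable difference in its liver or kidney.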

How the data were processed

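RNA-seq of lung, liver and kidney of 47 CC strains was analysed. The authors prepared libraries from total RNA depleted of ribosomal RNA, sequenced 50-base single-end reads, aligned them with STAR 2.5.3a to strain-specific genomes based on Build37 and quantified them with RSEM. The expected counts deposited by the authors are on the scale of reads (25 values were not whole) and were rounded. The TPM deposited by the authors is scaled by length and library, and the deposited FPKM was not analysed. Strain and tissue came from the labels. The labels give no sequencing batch, so the paper's batch term was left out.

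Counts were scaled by TMM with edgeR 4.0.16, and genes above 1 CPM in 30% or more of the libraries were tested by limma-voom in R 4.3.3 (limma 3.58.1), where strain was the replicate block. The pairing comes from 1 mouse per strain, and same-strain libraries deviated together (median r across genes of 0.177 to 0.216, against -0.00771 to -0.00458 between strains). A call needed q ≤ 0.1 and a log2 fold change of 1 or more in size. Each library is 1 tissue of 1 mouse. In the tissue fit, where strain is the block, p-values rest on how tissue differences vary from mouse to mouse, library noise included. Those of the correlations come from permuting the mice. Correlations used log2(CPM + 1) and 100000 permutations (numpy 2.4.6, scipy 1.17.1). Values at or under 3 counts were taken as unresolved, for counting error only. The tissue fit and the permutation step were tested on simulated data.

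The genes and gene lists were chosen with earlier results of these data known. Genes named are the 8 members, the 3 largest changes per list between lung and liver past the threshold, marker genes, and the genes of highest rho in lung, of which 1 is not reported here. Rn45s, Scgb1a1 and proximal tubule comparisons were added after seeing the data. Alternatives covered edgeR's and DESeq2's (1.42.0) tests, DESeq2 size factors, TPM scales, thresholds, the filter, the block, and strains with low depth.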

Additional observations from a re-analysis of the deposited data

How the results depend on the processing

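Between lung and the other tissues, the counts of members called stayed within 1.5 times of those reported under all alternatives run, the fit without the replicate block included, where 8 in place of 7 were called higher in lung than in liver. Between liver and kidney, log2(TPM + 1) left 0 members called higher in liver and a log2 fold change of 2 left 1 called higher in kidney. Across lungs, CPM without TMM gave 28 pairs and 64 marker relations past q ≤ 0.1 in place of 16 and 0, with the share of Rn45s in the divisor, and DESeq2 size factors gave 1 marker relation. Of the 16 pairs 11 passed in each of the 5 alternatives. Without the low-depth strains 13 pairs and 0 relations across tissues passed. Scgb1a1 alone, chosen after seeing the data, gave 8 relations outside lung, all positive, in place of 3, all negative. The cause was not tested. On TMM-normalized TPM the SD of Abca3 was 0.339. The scaling shifted the median of all genes in lung against liver to 0.296 with DESeq2 size factors and 1.52 on log2(TPM + 0.1), from 0.055. Depth limits Sftpb and Lamp3 outside lung, where most libraries had at most 3 counts.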
